A study of Mus musculus with 12 samples.

Results

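A set of 60 mouse genes was examined whose relative transcript level was high in B cells that had divided once or 3 times and lower both in undivided cells and in cells that had divided at least 8 times. The members were chosen by a score on log2(mean CPM + 1), where CPM is a gene's read count over all gene counts of its library, multiplied by 1e6. The score is the higher of the division 1 and division 3 values minus the highest of the division 0, CD138- division 8 and CD138+ division 8 values. The 60 highest scores were taken among the 9630 genes with at least 5 CPM in division 1 or 3, out of 21761 genes in all, with Cxcr3 left out by the rule. Scores ran from 1.75 for Srgap3 to 0.79 for Mpeg1, and the first gene outside, Il3ra, scored 0.78. The next genes outside were Sv2a and Cfp. Since the measured levels chose the members, their low, high, low course over these groups is a description and was not tested.

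The study followed splenic B cells (B220+ CD43-) that were dye-labelled with CFSE or CTV and given to uMT mice, which have no B cells of their own. The hosts rested overnight and received LPS, and donor cells were sorted from the spleen 3 days later by the dye that remained. The 6 groups were Div0, Div1, Div3 and Div5 (cells after 0, 1, 3 and 5 divisions), and Div8neg and Div8pos (at least 8 divisions, without or with the plasma cell surface protein CD138). Each group had 1 library from each of 2 hosts, numbered 196 and 197, with 40000 sorted cells a library. All libraries carry the same labels for sex (female), age (8 weeks), agent (LPS) and strain (B6.SJL-Ptprca Pepcb/BoyJ), while the design text names naive C57/BL6J donors. No untreated group is among these libraries, every cell came from an LPS-treated host, and the labels do not say whether the donor cells of the 2 hosts were pooled, so that p-values measure the spread between these libraries, which may be partly technical. Below, paired values are given for host 196 first and host 197 second.

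LPS is a bacterial cell wall component that B cells sense through TLR4, after which they divide and a part of them becomes antibody-secreting cells. Division dyes are shared out between daughter cells, so the dye that remains shows how often a cell has divided. Antibody-secreting cells switch off much of the B cell programme, including receptors for cytokines and chemokines, and devote much of their mRNA to immunoglobulin.

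Libraries held 11551585 to 14975133 gene counts and 113723 to 683173 counts of ERCC spike-in RNA, synthetic transcripts added before RNA extraction. The 11 B cell markers summed to 13232 to 13556 CPM in Div0 and 1904 to 1912 CPM in Div8pos. The 12 T cell markers summed to at most 60.6 CPM, in Div1. Of these Lck was at 54.9 and 52.9 CPM in Div1, 43.5 and 40.5 in Div0 and 0.605 and 1.1 in Div8pos, Cd28 was at 30.2 and 40.8 CPM in Div8pos, and Cd3d, Cd3e and Cd3g reached at most 0.546, 0.519 and 0.346 CPM. In bulk samples, fewer cells of a type and less RNA per cell cannot be told apart.

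The cytokine receptors Flt3, Il9r and Csf2ra were among the members, and Flt3 had the second highest score. Flt3, the receptor tyrosine kinase for FLT3 ligand, known from blood cell progenitors and dendritic cells, stood at 85.5 and 94.4 CPM in Div0, 281 and 279 in Div1, 433 and 422 in Div3, 389 and 345 in Div5, 156 and 122 in Div8neg and 20.9 and 17 in Div8pos. Its 4 Div1 and Div3 libraries lay above all 6 libraries of Div0, Div8neg and Div8pos, and mean Flt3 CPM was 4.75 times as high in Div3 as in Div0. Il9r, the specific chain of the interleukin-9 receptor, had the highest CPM of any member, with 505 and 490.4 CPM in Div0, 841 and 746 in Div1, 1133 and 961 in Div3, 1031 and 863 in Div5, 394 and 339 in Div8neg and 17.5 and 13.6 in Div8pos. Csf2ra, the alpha chain of the GM-CSF receptor, stood at 41 and 45.2 CPM in Div0, 83.2 and 85.5 in Div1, 87.9 and 93 in Div3, 76 and 73.2 in Div5, 38 and 40.4 in Div8neg and 6.88 and 8.81 in Div8pos. In both genes the Div5 libraries were still above Div0, and the Div8pos libraries were the lowest.

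Promoter sequences are shown for 6 members: the 3 cytokine receptors, the chemokine receptor Ccr6, the Notch ligand Dll1 and the transcriptional regulator Aire. They let the start regions of these 6 be read side by side, of which Dll1 and Aire had come down by Div5 and the others stayed high there. Each runs 5′ to 3′ on the gene's strand from 250 bases before to 50 bases after a RefSeq start (GRCm38.p6), and for Ccr6 and Dll1 the first of 2 listed starts was used. Capitals mark letters that match 1 of the 11 motifs named below.
Flt3 (chr5:147400440-147400739, minus strand): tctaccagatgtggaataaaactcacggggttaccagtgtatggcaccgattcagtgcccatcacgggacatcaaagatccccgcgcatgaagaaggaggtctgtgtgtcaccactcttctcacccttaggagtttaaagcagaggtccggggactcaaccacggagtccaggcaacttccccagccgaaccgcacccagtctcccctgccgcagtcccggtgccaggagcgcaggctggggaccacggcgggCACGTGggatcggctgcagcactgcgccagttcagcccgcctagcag
Il9r (chr11:32200230-32200529, minus strand): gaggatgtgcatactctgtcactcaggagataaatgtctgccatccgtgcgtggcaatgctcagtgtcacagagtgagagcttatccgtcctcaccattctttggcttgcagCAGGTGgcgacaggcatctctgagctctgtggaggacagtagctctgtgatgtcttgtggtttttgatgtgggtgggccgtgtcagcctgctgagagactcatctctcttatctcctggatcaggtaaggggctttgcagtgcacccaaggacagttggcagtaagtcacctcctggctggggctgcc
Csf2ra (chr19:61228369-61228668, minus strand): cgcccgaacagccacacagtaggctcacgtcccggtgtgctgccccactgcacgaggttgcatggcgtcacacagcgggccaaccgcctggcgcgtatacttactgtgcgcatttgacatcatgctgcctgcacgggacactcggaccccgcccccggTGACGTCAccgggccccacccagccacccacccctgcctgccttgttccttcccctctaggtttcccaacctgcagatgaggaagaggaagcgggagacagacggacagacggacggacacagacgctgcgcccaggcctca
Ccr6 (chr17:8235793-8236092, plus strand): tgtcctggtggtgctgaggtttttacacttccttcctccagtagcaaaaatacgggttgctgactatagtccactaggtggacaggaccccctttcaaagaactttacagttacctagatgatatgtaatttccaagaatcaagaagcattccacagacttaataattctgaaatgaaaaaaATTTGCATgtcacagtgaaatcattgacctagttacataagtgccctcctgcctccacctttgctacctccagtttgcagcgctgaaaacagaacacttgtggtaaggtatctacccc
Dll1 (chr17:15375774-15376073, minus strand): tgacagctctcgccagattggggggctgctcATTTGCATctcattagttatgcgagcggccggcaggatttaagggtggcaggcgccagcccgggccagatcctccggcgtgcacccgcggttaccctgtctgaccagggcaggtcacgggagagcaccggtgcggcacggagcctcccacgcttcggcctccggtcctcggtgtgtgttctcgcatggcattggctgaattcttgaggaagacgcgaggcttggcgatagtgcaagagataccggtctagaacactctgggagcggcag
Aire (chr10:78043561-78043860, minus strand): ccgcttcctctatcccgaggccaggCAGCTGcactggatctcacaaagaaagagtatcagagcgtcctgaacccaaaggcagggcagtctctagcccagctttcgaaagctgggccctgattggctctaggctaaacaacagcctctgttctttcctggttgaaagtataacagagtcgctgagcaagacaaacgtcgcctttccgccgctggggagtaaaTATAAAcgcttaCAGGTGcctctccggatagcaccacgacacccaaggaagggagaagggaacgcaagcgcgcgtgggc

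Of the 60 members, 46 (76.7%) had an entry in the promoter table. Because fewer than 80% had one, a comparison of promoter properties between the members and other genes is void, and the counts below describe the 46 entries. Motifs were searched on both strands in the 300 bases, and the share that hold each motif is given beside it, first of all 27025 promoters and then of the 9601 promoters of genes tested below. The kB site was in 0 of 46 (1.43% and 1.49%). Among E-boxes, CAGCTG was in 6 (16.1% and 14.4%), CACCTG in 11 (20% and 17%) and CACGTG in 2 (7.24% and 10.4%). The PU.1 site GAGGAAGT was in 1 (3.28% and 3.3%), the composite ETS and IRF site in 1 (2.79% and 2.45%) and the octamer ATGCAAAT in 2, Ccr6 and Dll1 (1.75% and 1.48%). The AP-1 site TGANTCA was in 1 (7.93% and 4.7%), the CRE TGACGTCA in 1 (1.88% and 3.35%), the RBPJ site GTGGGAA in 1 (6.39% and 5.87%) and the TATA box TATAAA in 3 (14.2% and 7.01%). A match describes letters in the window and is not a binding site.

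Dendritic cell markers were set beside Flt3, which is one of them. The 12 listed markers summed to 119.7 to 137 CPM in Div0, 319 to 324 in Div1, 481 to 486 in Div3, 442 to 467 in Div5, 223 to 239.6 in Div8neg and 99.1 to 102 in Div8pos, with Flt3 the largest part in Div1 and Div3. Of the 12, Clec9a, Cd209a, Siglech, Batf3 and Xcr1 reached at most 0.0866, 0.224, 0.433, 0.847 and 1.06 CPM in any library. Of the other listed markers, Zbtb46, Ccl22 and Itgax were higher in Div3 than in Div0. Bst2 and Ccr9 were lower in Div3 in each host. Bst2 was at 23.9 and 31.5 CPM in Div0 and 14.9 and 20.4 in Div3. Ccr9 was at 0.909 and 0.693 CPM in Div0 and 0.762 and 0.401 in Div3. Zbtb46 was at 3.86 and 3.64 CPM in Div0, 6.47 and 7.64 in Div1, 8.91 and 7.21 in Div3, 5.44 and 5.62 in Div8neg and 0 and 0.254 in Div8pos. Ccl22 was at 1.36 and 0.866 CPM in Div0, 2.13 and 3.21 in Div1, 5.56 and 5.08 in Div3, 5.01 and 4.52 in Div8neg and 0.227 and 0.17 in Div8pos. Itgax, which activated B cells also express, ran from 1.06 CPM in a Div8pos library to 64.1 in a Div5 library, while Bst2 was highest in Div8pos, at 69.0 and 71.1 CPM. The part of these markers in the Flt3 values was not tested.

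Of the 32 genes listed as haematopoietic cytokine and growth factor receptors or ligands, 27 were tested and 3 were members. Of the 9630 genes with at least 5 CPM in Div1 or Div3, 60 were members. The list was chosen with earlier results of these data known, and the 27 and the 9630 passed different filters. The counts are thus a description and say nothing of an enrichment. Il3ra, the alpha chain of the interleukin-3 receptor and the first gene outside the members, took a like course, with means of 22.4 ± 2.06 CPM (SD, n = 2) in Div0, 35.9 ± 2.55 in Div1, 39.0 ± 0.0417 in Div3, 15.7 ± 2.56 in Div8neg and 7.4 ± 0.87 in Div8pos. Csf2rb, the common beta chain that pairs with both (named after its values were seen), averaged 40.2 ± 2.78 CPM (SD, n = 2) in Div0, 37.5 ± 4.23 in Div1, 49.0 ± 7.52 in Div3, 136 ± 11.4 in Div8neg and 271 ± 33.2 in Div8pos. It was thus highest in the group in which Csf2ra was lowest.

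**Figure D1:**
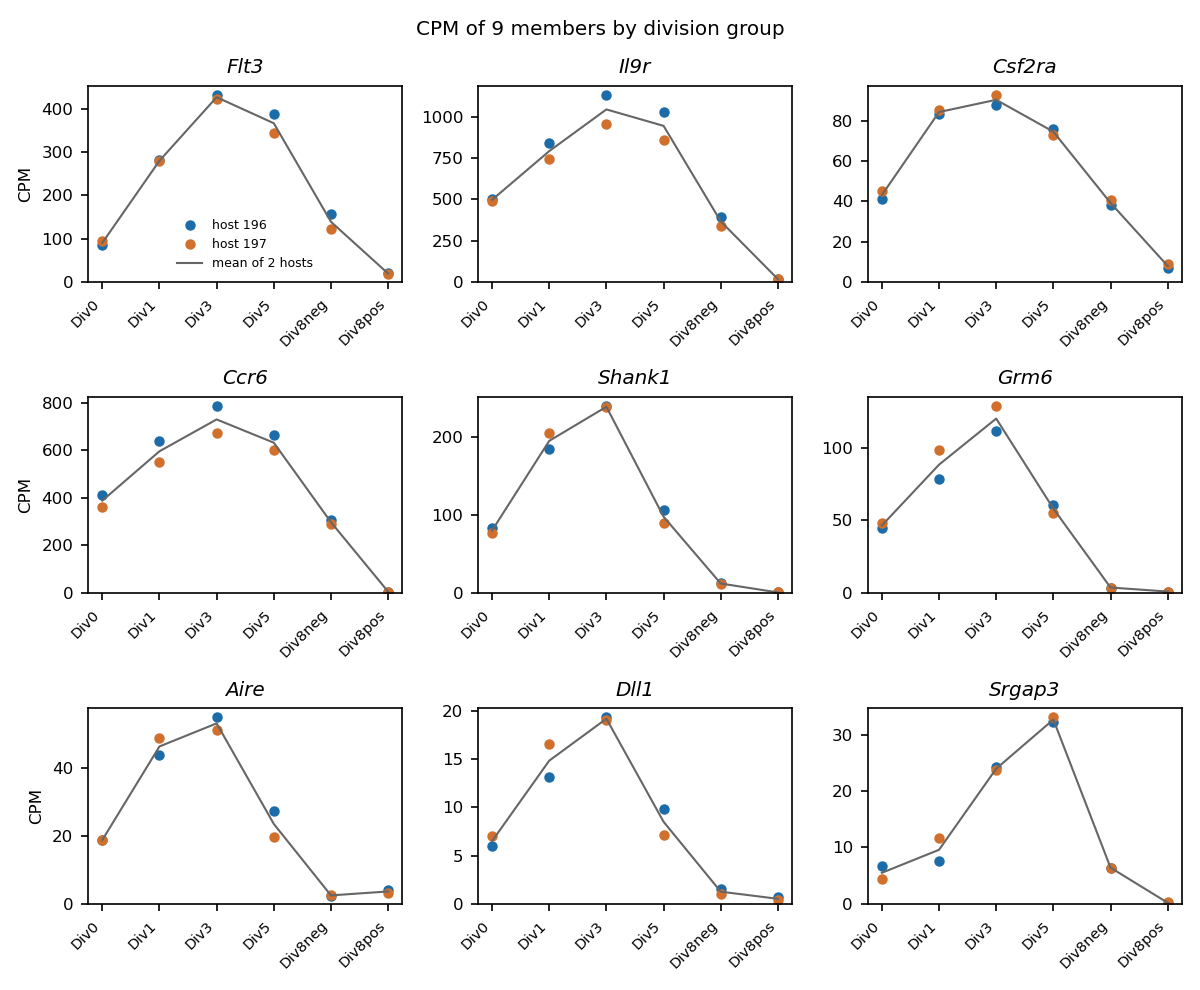
CPM (y axis, from 0) of 9 members in the 6 division groups (x axis); points are the libraries of host 196 and host 197 and the line joins the means of the 2 hosts. Flt3, Il9r, Csf2ra and Ccr6 stayed high in Div5, while Shank1, Grm6, Aire and Dll1 had come down by Div5 and Srgap3 was highest there.

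Of the 23 listed adhesion, integrin and chemokine receptor genes 2 were members, Ccr6 and Ccr1. Ccr6, the receptor for CCL20, stood at 413 and 362 CPM in Div0, 640.3 and 550.4 in Div1, 785 and 674 in Div3, 663 and 600.3 in Div5, 307 and 287 in Div8neg and 4.84 and 3.81 in Div8pos. Host 196 was above host 197 in each group for Ccr6, and within each host Div3 was the highest group. Ccr1, a receptor for inflammatory chemokines such as CCL3 and CCL5, stood at 22.7 and 19.1 CPM in Div0, 52.1 and 32.8 in Div1, 45 and 32.8 in Div3, 30 and 21.8 in Div5, 14.7 and 9.52 in Div8neg and 0.0756 and 0.0848 in Div8pos. Ackr3, an atypical receptor that takes up CXCL12 and is not in that list, stood at 22.2 and 20.6 CPM in Div0, 35.4 and 32.7 in Div1, 50.4 and 43.1 in Div3, 45.3 and 34.7 in Div5, 17.7 and 13 in Div8neg and 19.9 and 18.7 in Div8pos, with both Div8pos libraries above both Div8neg libraries.

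2 members belong to the Notch pathway, in which a ligand on one cell activates a receptor on its neighbour. The ligand Dll1 stood at 5.98 and 7.01 CPM in Div0, 13.1 and 16.6 in Div1, 19.4 and 19 in Div3, 9.86 and 7.14 in Div5, 1.48 and 1.01 in Div8neg and 0.68 and 0.339 in Div8pos. Its Div5 libraries were below its Div1 libraries in both hosts, and Div8neg and Div8pos were below Div0. Dtx3, of the Deltex family of ubiquitin ligases, stood at 70 and 70.2 CPM in Div0, 119 and 115 in Div1, 156 and 159 in Div3, 152 and 149 in Div5, 80.6 and 76.4 in Div8neg and 21 and 19.2 in Div8pos, with Div5 close to Div3. The receptor Notch2 averaged 827 CPM in Div0, 787 in Div1 and 860.2 in Div3 with a score of 0.06 (named after its values were seen).

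Several members are known mainly from neurons or sensory cells. Shank1, a scaffold protein of excitatory synapses, stood at 82.8 and 77 CPM in Div0, 184 and 206 in Div1, 239 and 238 in Div3, 106 and 89.5 in Div5, 11.9 and 11.8 in Div8neg and 0.302 and 0.424 in Div8pos. All 4 Div1 and Div3 libraries were above the Div0 libraries, the Div5 libraries lay between them, and the Div8 libraries were far below Div0. Grm6, a glutamate receptor of retinal bipolar cells, followed the same order with 44.5 and 48.3 CPM in Div0, 78.6 and 98.2 in Div1, 112 and 129 in Div3, 60.8 and 55.4 in Div5, 3.6 and 3.59 in Div8neg and 0.831 and 0.763 in Div8pos. Srgap3, a GTPase-activating protein for RAC1, took another course, with 6.66 and 4.33 CPM in Div0, 7.57 and 11.6 in Div1, 24.2 and 23.8 in Div3, 32.3 and 33.1 in Div5, 6.42 and 6.4 in Div8neg and 0 and 0.339 in Div8pos, so that Div5 was its highest group in both hosts. Grik5, a kainate receptor subunit, stood at 4.85 and 6.84 CPM in Div0 and 17.4 and 15.6 in Div3. Ache, the enzyme that splits acetylcholine, had 3.26 and 1.39 CPM in Div0 and 5.78 and 6.0 in Div1. Of the 30 listed synaptic scaffold and axon guidance genes only Shank1 was a member, and its relatives Shank2 and Shank3 averaged at most 0.113 and 1.17 CPM in any group.

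Aire, the regulator that lets thymic epithelial cells express tissue-restricted genes, stood at 18.7 and 18.9 CPM in Div0, 44 and 48.8 in Div1, 55.1 and 51.3 in Div3, 27.4 and 19.7 in Div5, 2.26 and 2.65 in Div8neg and 3.93 and 3.31 in Div8pos. Its Div3 libraries were the highest in both hosts and its Div8neg libraries the lowest. Rec8, the meiotic cohesin subunit, stood at 6.66 and 5.45 CPM in Div0, 13.9 and 15.1 in Div1, 14.2 and 13.9 in Div3, 6.42 and 7.38 in Div5, 2.26 and 1.56 in Div8neg and 0.151 and 0.763 in Div8pos, and was the only member among 23 listed meiosis and germline genes, of which 8 were tested. Myosins among the members included Myo10, which carries cargo along filopodia, and Myo1h, a class I myosin. Myo10 stood at 19.2 and 19.3 CPM in Div0, 40.9 and 40.7 in Div1, 60.1 and 57.2 in Div3, 45.2 and 38.7 in Div5, 26.8 and 23.4 in Div8neg and 2.64 and 2.46 in Div8pos, with Div8neg above Div0.

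Of the 18 listed marginal zone and B1 cell genes 2 were members, Bhlhe40 and Dll1, and the other genes given here are in no list. Mpeg1, which encodes the pore-forming protein perforin-2, stood at 198 and 225 CPM in Div0, 383 and 411 in Div1, 557 and 550.0 in Div3, 501 and 481 in Div5, 320.4 and 320.3 in Div8neg and 7.18 and 7.54 in Div8pos. Bhlhe40, a transcription factor listed among marginal zone and B1 cell genes, stood at 126 and 134 CPM in Div0, 208 and 215 in Div1, 265 and 272 in Div3, 223 and 226 in Div5, 149 and 159 in Div8neg and 9.07 and 10.8 in Div8pos. In both, the Div8neg libraries were above the Div0 libraries, and Div8pos was the lowest group. Havcr1, which encodes the phosphatidylserine receptor TIM-1, had 1.59 and 1.73 CPM in Div0 and 8.0 and 6.94 in Div3. Gpr157, an orphan G protein-coupled receptor, stood at 5.38 and 5.02 CPM in Div0 and 16.8 and 16.2 in Div3.

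Ngp, a granule protein of neutrophils, was higher in host 197 in every group. It stood at 0.151 and 2.68 CPM in Div0, 0.0851 and 10.7 in Div1, 0.533 and 3.07 in Div3, 0 and 0.481 in Div5, 0.0706 and 1.95 in Div8neg and 0 and 0.0848 in Div8pos, and its score was 0.41 in host 196 and 1.67 in host 197. It was the 1 member of 60 whose peak libraries were not both above all 6 libraries of the low groups. The 11 neutrophil markers in the table, Ngp included, summed to 23.4 CPM in Div1 of host 196 and 105 CPM in Div1 of host 197, against 23.8 to 62.3 in Div0, 26.4 to 44.1 in Div3, 29.2 to 51.8 in Div5, 55.6 to 57.4 in Div8neg and 66.4 to 68.2 in Div8pos. Most of the sum in Div8pos was Cxcr2, at 63.9 and 62.1 CPM there and 16.0 to 46.7 CPM elsewhere. In Div1 S100a9 was at 2.55 and 32.2 CPM, S100a8 at 2.3 and 15.4, Lcn2 at 0.681 and 6.82, Mmp9 at 0.34 and 5.73, Ltf at 0.0851 and 5.46 and Retnlg at 0 and 5.46. Each of these 6 was, like Ngp, higher in host 197 than in host 196 in every group. Mpo and Elane, which mark early neutrophil precursors, reached at most 0.152 and 0.0866 CPM. The part of these markers in the Ngp result was not tested.

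**Figure D2:**
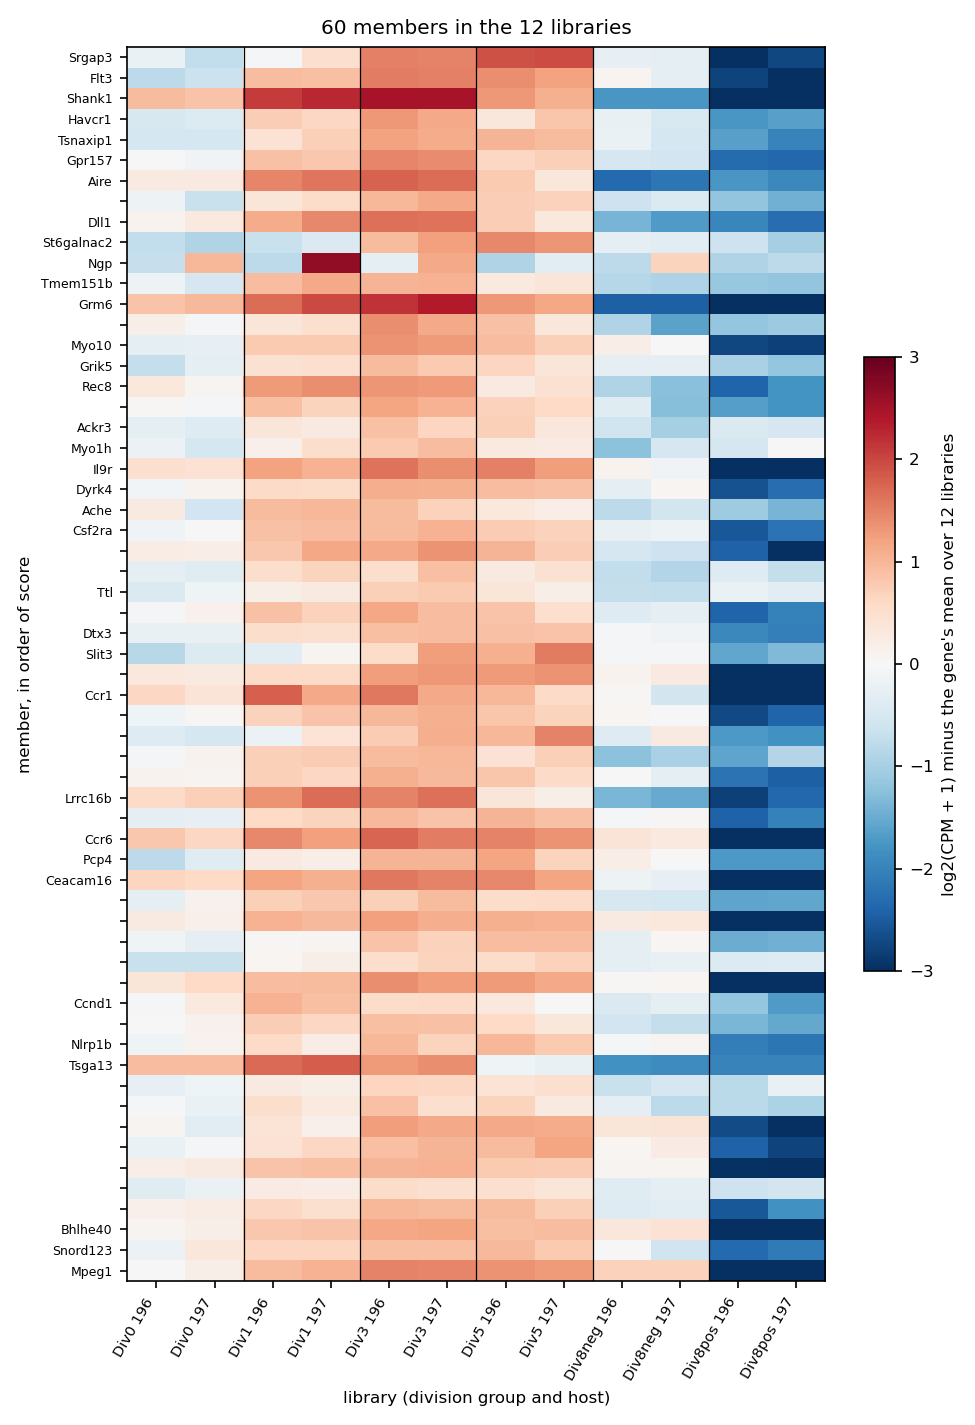
Log2(CPM + 1) of the 60 members (rows, ordered by score) in the 12 libraries (columns, by division group and host), each as the difference from the gene's mean over the 12 libraries; row labels are given for members described in the text. Div1, Div3 and Div5 columns are above the gene's mean in most rows, Div8pos is the lowest group for 51 members, and Ngp stands out for 1 Div1 library.

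By mean CPM, the rule itself kept every member from being highest in Div0, Div8neg or Div8pos. The label of a peak at early divisions was therefore set by the choice on this scale, and only Div5 was free to differ. Mean CPM was highest in Div3 for 43 members, in Div1 for 7 and in Div5, which the rule did not use, for 10. Between Div1 and Div3, 53 members were higher in Div3. Those higher in Div1 were Ngp, Tmem151b, Rec8, Ache, Ccr1, Tsga13 and Ccnd1, of which Ccnd1, cyclin D1, was named after its values were seen. In Div5 the level on the log2(CPM + 1) scale was at least 1 below the peak for 7 members, Shank1, Aire, Dll1, Ngp, Grm6, Lrrc16b and Tsga13. It was below the peak by less than 1 for 43 members and above it for 10, with a median difference of -0.26 and a range from -2.37 to 0.43.

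The authors' mRNAs per cell, a spike-in calibrated estimate per gene length, gave another order. Beside it, the total over all genes averaged 30493 ± 4362 mRNAs per cell (SD, n = 2) in Div0, 51392 ± 12108 in Div1, 48563 ± 7030 in Div3, 71516 ± 4989 in Div5, 100284 ± 4757 in Div8neg and 163027 ± 15578 in Div8pos. By mRNAs per cell 39 members were highest in Div5 (7.5% of the 9630 genes), 8 in Div1 (4.63%), 7 in Div3 (0.187%) and 6 in Div8pos (72.8%). So 15 of 60 members were highest per cell in Div1 or Div3, compared with 4.82% of the 9630 genes, and this count was 14 in host 196 alone and 28 in host 197 alone. The 15 included Shank1, Havcr1, Gpr157, Aire, Dll1 and Grm6 in Div3 and Ngp, Tmem151b, Rec8, Ache and Ccr1 in Div1. In a looser reading, 43 of 60 members had more mRNAs per cell in Div1 or Div3 than in each of Div0, Div8neg and Div8pos, compared with 8.29% of the 9630 genes. All of these counts rest on the levels that chose the members and are given without a test.

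Per cell, Flt3 averaged 1.97 ± 0.384 mRNAs (SD, n = 2) in Div0, 14.9 ± 1.79 in Div3, 18.6 ± 3.02 in Div5 and 2.07 ± 0.497 in Div8pos. Il9r averaged 12.8 ± 1.35, 42.6 ± 0.894, 56.6 ± 11.5 and 2.01 ± 0.543 mRNAs per cell in the same groups. The Div3 and Div5 libraries of Il9r did not overlap, and host 196 was the higher of the Div5 libraries. Shank1 averaged 0.777 ± 0.0577 mRNAs per cell in Div0, 3.72 ± 0.498 in Div3 and 0.368 ± 0.0176 in Div8neg, so that its peak at Div3 held on this scale too. The 8 members that exceeded 10 mRNAs per cell in some group included Flt3, Il9r, Ccr6, Dtx3, Bhlhe40 and Mpeg1, whereas 33 members stayed under 1 mRNA per cell in every group.

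Added over the 60 members, CPM was 2362 in Div0, 4083 in Div1, 5307 in Div3, 4426 in Div5, 2057 in Div8neg and 261 in Div8pos. Summed mRNAs per cell were 67.6, 193, 233, 286, 187 and 35.7 in the same order. The summed CPM was thus highest in Div3 and the summed mRNAs per cell in Div5.

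**Figure D3:**
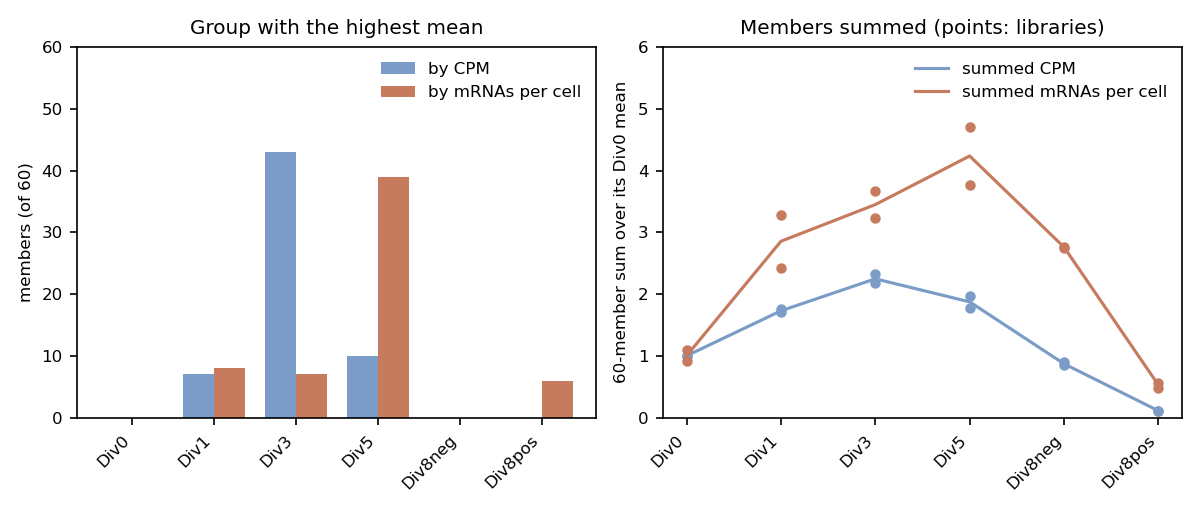
Left, number of the 60 members (y axis) whose mean is highest in each group (x axis), by CPM and by mRNAs per cell. Right, the sum over the 60 members as a ratio to its Div0 mean (y axis, from 0), with points for libraries and lines for means; by CPM 43 members were highest in Div3, and by mRNAs per cell 39 were highest in Div5.

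The 2 hosts were compared by choosing members in one and scoring them in the other. The 60 genes chosen in host 196 alone had a median score of 0.89 in host 197, all 60 were above 0 there, and 58 were above 0.5. Among all genes that passed the minimum in host 196, 27.1% were above 0 in host 197 and 2.02% above 0.5. The 60 chosen in host 197 had a median score of 0.94 in host 196, where 56 were above 0, compared with 25.3% of all genes. Above 0.5 there were 52, compared with 1.76% of all genes, and the lowest score was -0.45. The 4 at or below 0 were Vcam1, Retnlg, Axl and Cd5l, named after their values were seen, which are known from macrophages and neutrophils. The lists of the 2 hosts shared 37 genes. All of these libraries carry 1 sample a group in a host, so no test was made.

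**Figure D4:**
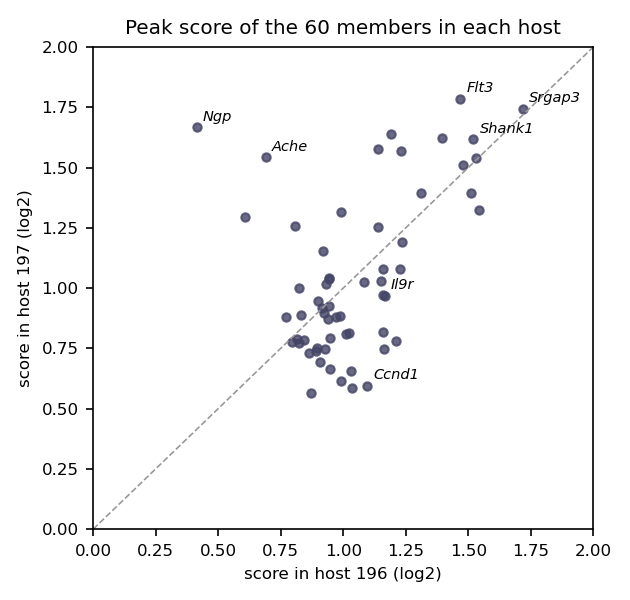
Score of each of the 60 members in host 196 (x axis) and in host 197 (y axis), on the log2(CPM + 1) scale, with a dashed line where both are equal. All points are above 0 on both axes, and Ngp lies far from the line at 0.41 and 1.67.

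3 comparisons were tested, those in which the rule set no direction, with edgeR's quasi-likelihood test over 12026 genes and Benjamini-Hochberg adjustment. All 60 members passed the filter on low counts. Div3 was first set against Div1. 23 members rose and 0 fell, where 1.9% of all tested genes rose and 1.51% fell (3.42% called in all), and the median log2 fold change of the members was 0.41 against 0.00 for all genes. The rule took the higher of Div1 and Div3, which favours members that differ between them, so the count supports nothing about how they were chosen. The same choice bears on the adjusted p-values of single members in this comparison, which are given below as a description. With the host as a replicate block 31 rose and 1 fell. For this and the other alternative settings below, the share of all genes called in each direction was not computed. Their member counts are therefore not read as a result about the members, and the totals of all genes called are given in the last section.

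St6galnac2, a sialyltransferase for O-linked glycans, rose most, from 0.766 and 1.09 CPM in Div1 to 4.49 and 5.68 in Div3, a log2 fold change of 2.44 ± 0.29 (SE, adjusted p = 0.000179). Srgap3 rose by 1.32 ± 0.18 on the log2 scale (adjusted p = 0.00058). Slit3, a secreted guidance factor, rose by 1.35 ± 0.32 (adjusted p = 0.028), a call that was lost without any 1 of the libraries Div1 196, Div1 197 and Div3 197. Flt3 rose by 0.62 ± 0.09 (adjusted p = 0.00139), Mpeg1 by 0.49 ± 0.06 (adjusted p = 0.000198) and Dtx3 by 0.44 ± 0.06 (adjusted p = 0.000312).

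For Il9r the log2 fold change was 0.42 ± 0.10 (adjusted p = 0.0351), and its adjusted p was 2.5e-05 with the block, but it lost its call without Div1 196, Div1 197 or Div3 196. For Ccr6 it was 0.31 ± 0.09, with adjusted p = 0.0864 and adjusted p = 0.000196 with the block. Csf2ra, Aire and Dll1 did not pass the test, with log2 fold changes of 0.12, 0.21 and 0.38. Ngp had a log2 fold change of -1.58 ± 1.01 (adjusted p = 0.543, and 0.00764 with the block). The count of members that rose was 11, 12, 13 and 14 without Div1 196, Div1 197, Div3 196 and Div3 197, and 4 with library sizes scaled to the spike-in counts. With that scaling St6galnac2, Srgap3 and Slit3 kept their calls. Flt3, Mpeg1, Dtx3 and Il9r lost theirs, with log2 fold changes of 0.54, 0.40, 0.36 and 0.33 on that scale.

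Div8neg was set against Div0 to see whether the members had come back to the undivided level. 27 members fell and 9 rose, where 35.7% of all tested genes fell and 35.3% rose (71% called in all), and the median of the members was -0.42 against -0.01 for all genes. The members that fell by 1 or more numbered 10, where 10.8% of all genes did. The rule used the levels of both groups and left out genes high in either. These counts and medians beside those of all genes therefore describe the members and support nothing. The choice bears on the adjusted p-values of single members in this comparison too, which are given below as a description. Relative to the spike-ins the median of all genes moved to 1.68 and that of the members to 1.26. On that scale 48 members were called higher and 5 lower in Div8neg. The share of all genes called in each direction was not computed with that scaling, so these counts are not read as a result about the members.

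Tsga13, a testis-specific gene, had 3 counts over both Div8neg libraries and 165 over both Div0 libraries, a ratio of 59.9 (95% exact interval 20.2 to 294, counting error only). Grm6 fell by 3.69 on the log2 scale (SE 0.15, adjusted p = 1.88e-11), Aire by 2.94 (adjusted p = 2.66e-09) and Shank1 by 2.76 (adjusted p = 4.84e-12). Lrrc16b, a member of the CARMIL family of capping protein regulators, fell by 2.40 (adjusted p = 1.3e-08). Dll1 and Rec8 fell by 2.36 and 1.66, with adjusted p = 1.63e-06 and 3.46e-05. Relative to the spike-ins Tsga13, Grm6, Aire, Shank1 and Lrrc16b remained lower in Div8neg, Dll1 lost its call, and Rec8 was at 0.03.

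Of the cytokine and chemokine receptors, Flt3 rose by 0.63 ± 0.10 on the log2 scale (adjusted p = 5.86e-05). Il9r and Ccr6 fell by 0.44 and 0.39 (adjusted p = 0.00144 and 0.00158), a direction that turned to 1.24 and 1.31 relative to the spike-ins. Csf2ra did not pass, at -0.14 ± 0.08 (adjusted p = 0.132). Mpeg1 rose by 0.60 ± 0.06 (adjusted p = 3.36e-07) and Bhlhe40 by 0.24 ± 0.06 (adjusted p = 0.00161). St6galnac2 and Pcp4, a calmodulin-binding protein, rose by 1.09 and 1.06 (adjusted p = 0.0264 and 0.0117). St6galnac2 lost its call without any 1 of the 4 libraries, and Pcp4 without Div0 196 or Div8neg 196. Of the 27 tested cytokine receptors and ligands 5 rose and 13 fell, with a median of -0.44. Of the 26 tested Notch pathway genes 5 rose and 15 fell, with a median of -0.42. Among all tested genes 35.3% rose and 35.7% fell. Without the members, 4 rose and 12 fell of 24 receptors and ligands, and 4 rose and 14 fell of 24 Notch pathway genes. Relative to the spike-ins both medians turned, to 1.24 and 1.25.

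Div8pos was set against Div8neg, cells of like division number with and without CD138. 44 members fell and 4 rose, where 35.4% of all tested genes fell and 36.6% rose (72% called in all). The median of the members was -2.68 (-2.58 with the members at 0 counts in Div8pos set to their bound) against 0.01 for all genes, and 26 members fell by 3 or more on the log2 scale, as did 4.39% of all genes. The rule used both of these groups too, and the same limit holds for the counts, the medians and the adjusted p-values of single members. Relative to the spike-ins, where the median of all genes was 0.60, 42 members were lower and 7 higher. These counts too have no share of all genes by direction beside them.

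Ccr6 fell by 6.0 on the log2 scale (SE 0.15, adjusted p = 1.48e-14), Mpeg1 by 5.35 (adjusted p = 2.01e-16) and Ceacam16, a secreted protein of the inner ear, also by 5.35 (adjusted p = 1.89e-12). Srgap3, Shank1 and Il9r fell by 5.16, 4.91 and 4.46, with adjusted p = 2.29e-07, 2.17e-10 and 1.7e-13. Bhlhe40 fell by 3.86 (adjusted p = 1.88e-15), Flt3 by 2.78 (adjusted p = 1.08e-11), Csf2ra by 2.24 (adjusted p = 1.64e-11) and Grm6 by 2.06 (adjusted p = 9.41e-05). The B cell markers moved the same way, with 10 of 11 lower and a median of -2.62, where 35.4% of all tested genes were lower.

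Several members were at or near 0 counts in Div8pos. Pcp4 had 0 counts over both libraries and 69 in Div8neg, at least 21.3-fold lower with a floor of 3 counts over the group. Ccr1 had 2 counts against 330 in Div8neg, a ratio of 153 (42 to 1.27e+03), and Nlrp1b, an inflammasome sensor, 1 against 96, a ratio of 89.1 (15.6 to 3.55e+03). Dyrk4, a protein kinase, had 3 counts against 125, a ratio of 38.7 (12.9 to 190). These are 95% exact intervals that cover counting error only.

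The 4 members that rose were Myo1h, Ttl, Aire and Ackr3, of which Ttl, the tubulin tyrosine ligase, was named after its values were seen. Aire was at 2.26 and 2.65 CPM in Div8neg and 3.93 and 3.31 in Div8pos, a log2 fold change of 0.66 ± 0.27 (adjusted p = 0.0407). The others changed by 1.02, 0.62 and 0.41 (adjusted p = 0.0246, 0.00186 and 0.031). The number that rose was 2 without any 1 of the Div8neg and Div8pos libraries of hosts 196 and 197, and Aire lost its call in each of these 4 fits.

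**Figure D5:**
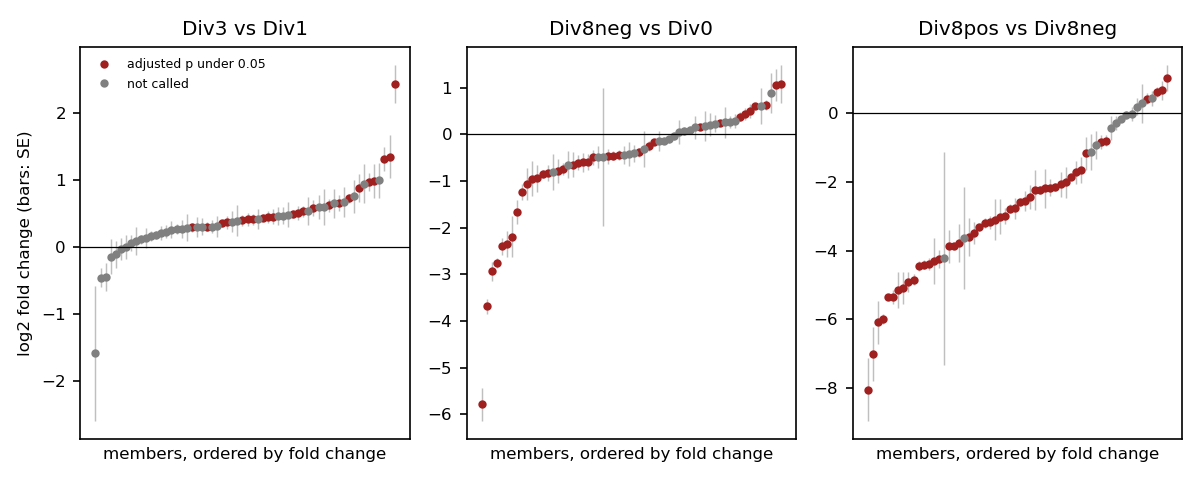
Log2 fold change (y axis) of the 60 members in the 3 tested comparisons, each ordered by its own fold change (x axis), with bars for the SE and red points where the adjusted p is under 0.05. In Div3 vs Div1 the 23 called members are all above 0, in Div8neg vs Div0 27 are below 0 and 9 above, and in Div8pos vs Div8neg 44 are below 0 and 4 above.

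Gene models bear on some of these values. 59 members are protein-coding and 1, Snord123 (named after it was seen), is a small nucleolar RNA gene, and the members lie on 19 chromosomes with at most 7 on 1 of them. An exon of 17 members overlaps another gene in GENCODE M21 (GRCm38), 16 of them on the opposite strand. The library kit marks strand, but whether the counting used it is not given in the sources used here, so for these genes reads of the partner may be included. The overlapping gene reached 70 CPM for Myo1h (Kctd10, 1010 shared bases), 59.9 for Tsnaxip1 (Cenpt, 4 shared bases) and 21.4 for St6galnac2 (1810032O08Rik, 496 shared bases). The changes given above for Myo1h and St6galnac2 carry this limit. Nlrp1b has near-identical copies among which reads can be split, so its values are uncertain.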

How the data were processed

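RNA was measured in 12 libraries (6 groups, 2 hosts). The authors deposited read counts over the exons of UCSC mm9 KnownGenes and counts of spike-ins, per the file headers. The submitters' processing notes name Picard and R 3.2.2, and which aligner and counter were run is not given in the sources used here. Deposited mRNAs per cell, a signal scaled per library by spike-ins and per exon length, were used as given. Per the labels' protocols, libraries came from a stranded mRNA kit with 11 PCR cycles and were read as 50 bp paired ends. Exon lengths were taken from the deposited tables. Bisulfite libraries were not analysed here.

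CPM used all gene counts of a library, and 90 rows without a symbol (0.0498 to 0.0943% of counts) were left out of tests. The members and gene lists were chosen with earlier results of these data known. Tests used edgeR 4.0.16 (TMM scaling, filterByExpr, quasi-likelihood, all 12 libraries, group means), with an adjusted p under 0.05 over 12026 genes; SEs are the fold change over the square root of F. DESeq2 1.42.0 was an alternative, with 18 alternative settings a comparison and 8 for the choice of members. All divisions of a number came from 1 host animal, so that the numbers pair the libraries. The main tests did not use this pairing, which entered only in the alternative with the replicate block. Deviations of same-host libraries correlated by -0.04 to 0.55, above 0.1 in 11 of 15 pairs of groups. The 2 libraries of a group differed by more than sampling noise (chi-square over degrees of freedom 2.48 to 4.38).

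In 20 simulations per comparison, with 200 genes changed by a log2 of 1 among 11728 to 11762 tested, a mean of 85.9% were recovered for Div3 vs Div1, 85.8% for Div8neg vs Div0 and 84.2% for Div8pos vs Div8neg. False calls made up a mean of 6.39, 5.89 and 6.81% of calls, above the nominal 5%, so the test was slightly liberal in that setting. In the data a far larger share of genes was called in Div8neg vs Div0 (71%) and in Div8pos vs Div8neg (72%). Recovery and false calls with so many changed genes were not tested.

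Named members are the 24 with the highest score, those called with a log2 fold change of 1 or more (up to 8 a direction), up to 12 that also peak per cell, those in the gene lists, and the 3 genes just outside. One member is not reported here by name. Other genes named, such as partners from the lists, were chosen after their values were seen. Promoter sequences are from RefSeq (GRCm38.p6). The 11 motifs were picked after the files were seen. GC and CpG content of the promoters were also computed and are not reported, since only 76.7% of members have an entry.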

Additional observations from a re-analysis of the deposited data

How the results depend on the processing

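Of 44 called fold changes of named members, each under 18 alternatives (792 values), 744 kept direction and call, 45 kept the direction only, 28 of these without 1 library, and 3 reversed. The 3 reversed with spike-in scaling in Div8neg vs Div0: Rec8 to 0.0318, Il9r to 1.24 and Ccr6 to 1.31. Some of the 18 alternatives leave out a library of a group outside the comparison. A fold change could hardly move in these fits, so 744 of 792 overstates how firm the calls were. The rule with other settings kept 41 to 60 of the 60 members, 44 without host 196 and 53 without host 197, but 14 with counts scaled to the spike-ins. The number highest per cell in Div1 or Div3 was 14 to 28 with 1 host alone, an alternative added after the data were seen.

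Div3 vs Div1 depended most on the settings. Members called there numbered 5 with spike-in scaling (4 higher, 1 lower), 15 with only the 4 libraries compared (all higher), and 11 to 25 without 1 library, with 0 lower throughout. Without the filter on low counts, and with the replicate block, 1 member was lower. The count of all genes called Div3 vs Div1 was 411, and 738 without the filter, 755 with the replicate block, 89 with spike-in scaling, 178 with 4 libraries and 138 to 405 without 1 library. In Div8neg vs Div0 spike-in scaling gave 48 members higher and 5 lower. In Div8pos vs Div8neg it gave 7 higher, and without 1 library 2 to 4 were higher. No share of all genes by direction stands beside these spike-in counts. The replicate block changed no call among the 44 fold changes. Causes were not tested. With 2 libraries a group, genes near 5 CPM rest on few counts, and small differences were not detectable.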
